A study of Homo sapiens with 6 samples.

Results

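The genes described here are 10 long noncoding RNA genes that are widely studied in lymphoma and other cancers: MALAT1, NEAT1, TUG1, KCNQ1OT1, OIP5-AS1, DLEU1, DLEU2, MIR17HG, MIR155HG and PVT1. They were chosen by symbol, and all 10 have a row among the 25277 genes of the deposited table. The RNA came from cultured Jeko cells and cultured Rec-1 cells, both established from the B-cell cancer mantle cell lymphoma. All cells were stable CRISPR/Cas9 lines with a tet-on vector, in which doxycycline switches on the guide, and all had doxycycline for 48 h. In each line 1 library came from cells with the empty vector, 1 from cells with NR4A1 sgRNA 1 and 1 from cells with NR4A1 sgRNA 2, which makes 6 libraries. A single guide RNA (sgRNA) leads Cas9 to cut the matching site, here in NR4A1, the gene of an orphan nuclear receptor that is switched on early after stimulation of a cell. The labels do not say whether the stable lines were single clones or pools, nor that the 2 sgRNA libraries of a line came from repeated cultures. The p-values within a line, between the lines and for the interaction thus measure only the spread between the 2 sgRNA libraries of each line. Those for sgRNA against control over both lines also take in how far the sgRNA differences of the 2 lines disagree.

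Long noncoding RNAs are transcripts that are not translated and act as RNA, or whose transcription itself has an effect. MALAT1 and NEAT1 stay in the nucleus, where MALAT1 gathers in nuclear speckles with splicing factors and NEAT1 is the scaffold of paraspeckles. KCNQ1OT1 silences neighbouring imprinted genes in cis, and TUG1 and OIP5-AS1 are abundant in many tissues. MIR17HG, MIR155HG and DLEU2 are host transcripts whose processing releases microRNAs, small RNAs that repress mRNAs through a short seed at their 5′ end. The microRNAs of MIR17HG and MIR155HG are known as drivers of B-cell lymphoma, and those of DLEU2 lie in a region of chromosome 13 that is often deleted in B-cell leukaemia and in mantle cell lymphoma.

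The mature microRNAs hosted by 3 of the genes are shown because they are the known products of these host RNAs. The sequences are from RefSeq (GRCh38.p14), written 5′ to 3′, with the seed, bases 2 to 8, in capitals. The first 6 come from MIR17HG, the next from MIR155HG and the last 2 from DLEU2.
hsa-miR-17-5p: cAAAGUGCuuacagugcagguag
hsa-miR-20a-5p: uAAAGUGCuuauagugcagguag
hsa-miR-18a-5p: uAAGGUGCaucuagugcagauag
hsa-miR-19a-3p: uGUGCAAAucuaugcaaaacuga
hsa-miR-19b-3p: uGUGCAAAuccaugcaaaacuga
hsa-miR-92a-3p: uAUUGCACuugucccggccugu
hsa-miR-155-5p: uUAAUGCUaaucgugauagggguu
hsa-miR-15a-5p: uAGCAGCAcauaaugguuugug
hsa-miR-16-5p: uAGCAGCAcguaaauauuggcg

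These 9 microRNAs have 6 distinct seeds. Seeds are shared by miR-17-5p and miR-20a-5p, by miR-19a-3p and miR-19b-3p, and by miR-15a-5p and miR-16-5p.

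Promoter windows of 250 bases before to 50 bases after the start are shown for the 2 host genes whose sgRNA libraries lay apart between the lines and for TUG1, the tested gene that was higher in all 4 sgRNA libraries. They are on the plus strand of GRCh38.p14, from RefSeq, with matches to the searched motifs in capitals. The windows are chr13:91347437-91347736 for MIR17HG, chr21:25561895-25562194 for MIR155HG and chr22:30969015-30969314 for TUG1.
MIR17HG: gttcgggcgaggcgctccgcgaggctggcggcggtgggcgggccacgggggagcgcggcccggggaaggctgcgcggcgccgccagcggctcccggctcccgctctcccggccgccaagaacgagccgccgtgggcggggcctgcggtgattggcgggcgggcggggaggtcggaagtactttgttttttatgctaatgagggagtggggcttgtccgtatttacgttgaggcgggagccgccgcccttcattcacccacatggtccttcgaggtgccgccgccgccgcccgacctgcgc
MIR155HG: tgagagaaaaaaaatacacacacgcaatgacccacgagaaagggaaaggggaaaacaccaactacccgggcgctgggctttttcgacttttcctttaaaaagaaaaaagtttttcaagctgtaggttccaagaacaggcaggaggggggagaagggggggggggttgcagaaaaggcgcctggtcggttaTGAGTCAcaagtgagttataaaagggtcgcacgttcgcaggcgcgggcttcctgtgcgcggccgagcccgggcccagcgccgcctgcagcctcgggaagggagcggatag
TUG1: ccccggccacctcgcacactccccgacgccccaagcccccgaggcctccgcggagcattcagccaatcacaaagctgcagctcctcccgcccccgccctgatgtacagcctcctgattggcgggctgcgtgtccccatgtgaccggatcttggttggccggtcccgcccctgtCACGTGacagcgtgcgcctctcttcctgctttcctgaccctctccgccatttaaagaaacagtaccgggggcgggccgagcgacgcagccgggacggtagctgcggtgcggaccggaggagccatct

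The motifs were searched on both strands in the 9 windows that the table holds for 7 of the genes, and no window held more than 1 of the motifs. The NBRE, the site that NR4A1 binds as a monomer (AAAGGTCA), was in 0 of the 9 windows and in 1.22% of 35116 windows of all genes. The NF-kB motif was in 0 of the 9 and in 0.558% of all. The E-box CACGTG was in windows of DLEU2, OIP5-AS1 and TUG1 and in 7.26% of all. The AP-1 motif TGANTCA was in the MIR155HG window and in 7.71% of all. A match describes letters and not a bound site. The DLEU1 window and 1 of the 2 DLEU2 windows shared 227 bases, on opposite strands.

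FPKM (fragments counted per kilobase of transcript and scaled to the depth of the library) are shares of a library, so fewer expressing cells and less RNA per cell cannot be told apart. NR4A1 itself had 5.99 FPKM in Jeko cells with the empty vector, 3.89 with sgRNA 1 and 4.44 with sgRNA 2. The library labelled Rec-1 control had 11.6 FPKM, that labelled sgRNA 1 had 27.4 and that labelled sgRNA 2 had 12.7, so NR4A1 mRNA was not lower there. The NR4A1 difference (limma on log2(FPKM + 1)) was −0.44 (SE 0.49, adjusted p 0.748) in Jeko and 0.65 (SE 0.49, adjusted p 0.391) in Rec-1. It passed in neither line, so directions in both lines rest on the labels. Across 10316 protein-coding genes the Rec-1 control correlated with the Jeko control at a Pearson r of 0.988, but its r was 0.804 with sgRNA 1 of its own line and 0.811 with sgRNA 2. The Jeko control had an r of 0.968 with sgRNA 1 of its own line and 0.963 with sgRNA 2, both below its 0.988 with the Rec-1 control. These correlations are over genes, which are not replicates. The B-cell markers CD79A and CD79B lay between 151 and 596 FPKM in the 6 libraries and the monocyte markers CD14 and CSF1R under 0.1. The T-cell marker CD3D was under 0.5 FPKM in the 3 Jeko libraries and the Rec-1 control but 66.3 and 95.3 in the libraries labelled Rec-1 sgRNA, while CD2 was under 0.03 in all. The summed T-cell list was 0.361 to 0.993 FPKM in the first 4 libraries and 71.5 and 101 in those labelled Rec-1 sgRNA, and the summed monocyte list was 0.43 to 1.97 in all 6. CCND1, the cyclin that defines this lymphoma, was 442 FPKM or more in the first 4 libraries but 0.696 and 0.592 in the libraries labelled Rec-1 sgRNA. Another defining marker, SOX11, was 7.11 to 11.1 FPKM in the first 4 libraries and 3.6 and 2.45 in those labelled Rec-1 sgRNA, and CD5 was under 0.1 FPKM in all 6 libraries. Whether each Rec-1 library is what its label says could not be settled, and the labels may be wrong. Comparisons of Rec-1 sgRNA with its labelled control and with Jeko sgRNA both hold these differences, whose part in the results was not tested.

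**Figure D1:**
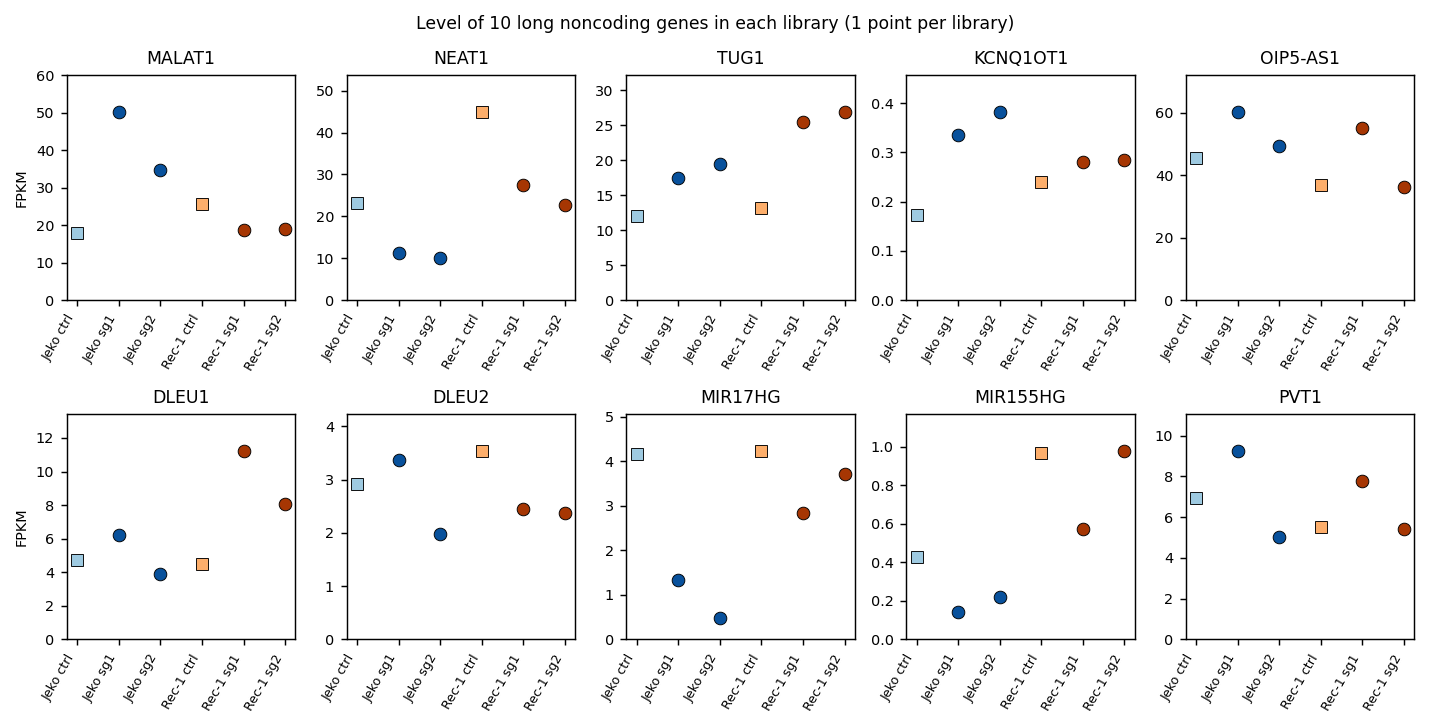
FPKM (vertical axes, each from 0) of the 10 genes in each of the 6 libraries, with 1 point per library, squares for controls and circles for sgRNA. MALAT1 was highest in Jeko sgRNA 1 at 50.2 FPKM, NEAT1 in the Rec-1 control at 44.9, and MIR17HG lowest in Jeko sgRNA 2 at 0.484.

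OIP5-AS1 had the highest level of the 10 genes in 5 libraries, and NEAT1 in the Rec-1 control. KCNQ1OT1 and MIR155HG were the lowest 2 in every library, and their means over the libraries, 0.283 and 0.550 FPKM, were under the minimum of 1 FPKM set for testing. The other 8 were among 11400 genes tested with limma on log2(FPKM + 1), on which scale all differences below are given unless a fold is named. Between the sgRNA libraries of the lines 2 of the 8 passed an adjusted p of 0.05, a share near the 25.9% of all tested genes that passed. They were NEAT1, higher in Rec-1 like 12.8% of all tested genes, and MALAT1, lower like 13% of them. At an unadjusted p under 0.05 the count was 5 of 8, against 42.3%. The levels of 5 of the 8 did not overlap between these libraries, against 69.9% of all tested genes. With sgRNA against the own-line control, 0 of the 8 passed in Jeko (0.439% of all tested genes did) and 0 in Rec-1 (19.2% did). At an unadjusted p under 0.05 the Jeko and Rec-1 counts were 4 and 2 of 8, against 11.3% and 38.6% of all tested genes. The limma fit assumes that each lone control varies like the sgRNA libraries.

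MALAT1 (chromosome 11, 65265111 to 65275544, plus strand, GRCh37), the speckle RNA, was 17.8 FPKM in the Jeko control, 50.2 in Jeko sgRNA 1 and 34.7 in Jeko sgRNA 2. The Rec-1 levels were 25.6 FPKM for the control, 18.8 for sgRNA 1 and 19.1 for sgRNA 2. Both Jeko sgRNA libraries thus stood above the other 4. They held 282% and 195% of the Jeko control level, and the limma difference was 1.19 (SE 0.30, adjusted p 0.397). The libraries labelled Rec-1 sgRNA held 73.3% and 74.6% of their control level, a difference of −0.42 (SE 0.30, limma adjusted p 0.365). Between the lines, MALAT1 averaged 42.5 ± 11 FPKM (SD, n = 2) in Jeko sgRNA and 19.0 ± 0.23 (SD, n = 2) in Rec-1 sgRNA. It was lower in the latter by a limma difference of −1.10 (SE 0.24, adjusted p 0.0432, or 0.0530 when guide numbers formed a replicate block). Adjustment for transcript length moved the Jeko difference to 0.78 and that between the lines to −0.88 (limma adjusted p 0.0512), which ended the call. The call also ended with a minimum mean of 5 FPKM (limma adjusted p 0.0515) and with no minimum (0.0677). Leaving out any 1 of the 4 sgRNA libraries leaves a group of 1, which is assumed to vary like the remaining pair. The difference was then between −1.36 (without Jeko sgRNA 2) and −0.84 (without Jeko sgRNA 1), and the limma adjusted p was from 0.0720 (without Jeko sgRNA 2) to 0.183 (without Rec-1 sgRNA 1).

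NEAT1 (chromosome 11, 65190245 to 65213011, plus strand), the paraspeckle scaffold, ends 52.1 kb before MALAT1 begins. NEAT1 had 23.1 FPKM in the Jeko control, 11.2 in Jeko sgRNA 1 and 9.98 in Jeko sgRNA 2. For Rec-1 the control gave 44.9 FPKM, sgRNA 1 gave 27.6 and sgRNA 2 gave 22.8. All 4 sgRNA libraries were below their own control, and the 2 Jeko sgRNA libraries were below all others. Jeko cells with sgRNA 1 and 2 held 48.4% and 43.3% of the control level, and those labelled Rec-1 61.3% and 50.7%. The limma differences were −1.06 (SE 0.23, adjusted p 0.382) in Jeko and −0.82 (SE 0.23, adjusted p 0.0843) in Rec-1. Over both lines the limma difference was −0.94 (SE 0.19, unadjusted p 0.00307, adjusted p 0.169). Without the Rec-1 control it was −1.06 and without the Jeko control −0.82. The 2 controls differed as well, with 1.95-fold more NEAT1 in that of Rec-1. The libraries labelled Rec-1 sgRNA averaged 1.09-fold the Jeko control.

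NEAT1 averaged 10.6 ± 0.833 FPKM (SD, n = 2) in Jeko sgRNA and 25.2 ± 3.38 (SD, n = 2) in Rec-1 sgRNA, 2.38-fold higher in the latter. The limma difference was 1.17 (SE 0.19, adjusted p 0.0228). With any 1 of the 4 sgRNA libraries left out, under the same assumption for the group of 1, the difference was between 1.04 and 1.31. The call then ended, with limma adjusted p from 0.0881 without Rec-1 sgRNA 2 to 0.120 without Rec-1 sgRNA 1.

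The ratio of MALAT1 to NEAT1 within a library does not depend on how libraries were scaled to each other. It was 0.771 in the Jeko control, 4.50 in Jeko sgRNA 1 and 3.48 in Jeko sgRNA 2. In Rec-1 it was 0.570 in the control, 0.682 in sgRNA 1 and 0.839 in sgRNA 2. MALAT1 exceeded NEAT1 in the 2 Jeko sgRNA libraries alone, and the ratio was below 1 in both controls and in both libraries labelled Rec-1 sgRNA. The program that computed FPKM, and thus which NEAT1 isoform length entered it, is not given in the sources used here.

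**Figure D2:**
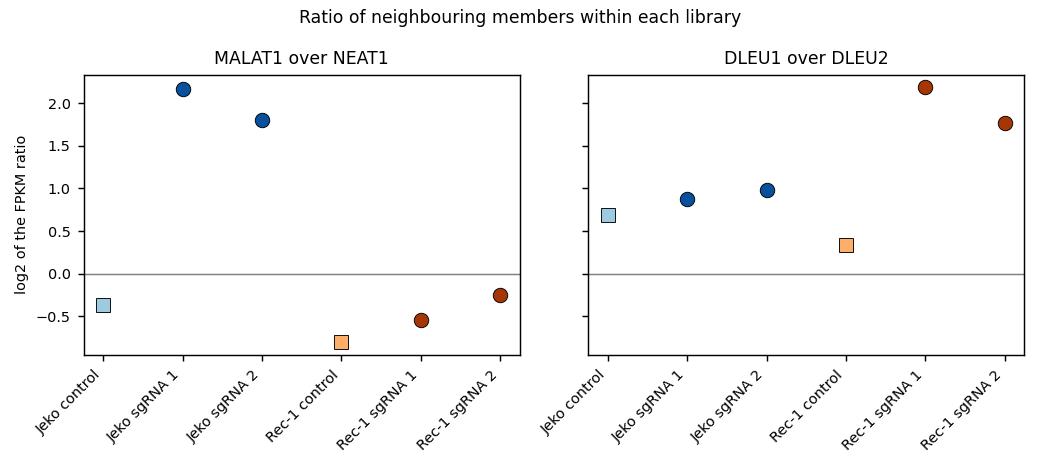
log2 of the FPKM ratio (vertical axis) of MALAT1 to NEAT1 and of DLEU1 to DLEU2 in each of the 6 libraries, with 1 point per library, squares for controls and circles for sgRNA. The MALAT1 ratio was above 0 in the 2 Jeko sgRNA libraries, at 2.17 and 1.80, and the DLEU1 ratio was highest in the libraries labelled Rec-1 sgRNA, at 2.19 and 1.77.

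For 12 paraspeckle protein genes tested, the median difference between the sgRNA libraries of the lines was −0.70, against −0.03 over all tested genes. Within the lines 0 of 12 passed, with medians of 0.12 in Jeko and −0.33 in Rec-1, against 0.00 over all tested genes in each. Of 9 speckle protein genes, SRSF1, a splicing factor, alone passed between the lines, at −1.73 (SE 0.25, limma adjusted p 0.0171). The median of the 9 was −0.61, and 0 of 9 passed within either line.

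TUG1 (chromosome 22, 31365231 to 31375381, plus strand), which the GENCODE annotation used here lists as protein-coding, was 12.0 FPKM in the Jeko control, 17.5 in sgRNA 1 and 19.5 in sgRNA 2. Among the Rec-1 libraries the control had 13.2 FPKM, sgRNA 1 had 25.5 and sgRNA 2 had 26.9. The 2 controls were the lowest libraries and the 2 labelled Rec-1 sgRNA the highest, with no overlap between these groups. Jeko cells with sgRNA 1 and 2 held 146% and 162% of the control level, and those labelled Rec-1 193% and 204%. TUG1 was the only 1 of the 8 tested genes that was higher in all 4 sgRNA libraries, where 21% of all tested genes were. The limma difference was 0.58 (SE 0.21, adjusted p 0.439) in Jeko and 0.94 (SE 0.21, adjusted p 0.0508) in Rec-1. Over both lines it was 0.76 (SE 0.18, limma unadjusted p 0.00712, adjusted p 0.175), 0.58 without the Rec-1 control and 0.94 without the Jeko control. Adjustment for transcript length moved the Jeko difference to 0.27. The Rec-1 difference passed under 4 of the alternatives, with limma adjusted p from 0.041 to 0.0479. It did not pass with length adjustment (difference 0.78, limma adjusted p 0.074), a replicate block (0.0714) or a minimum of 5 FPKM (0.0603). Nor did it pass with no minimum (limma adjusted p 0.0511) or a pseudocount of 0.1 (0.0518). The difference was 0.98 without Rec-1 sgRNA 1 and 0.90 without Rec-1 sgRNA 2.

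KCNQ1OT1 (chromosome 11, 2618538 to 2721233, minus strand), the imprinted antisense RNA inside KCNQ1, was 0.173 FPKM in the Jeko control, 0.336 in sgRNA 1 and 0.382 in sgRNA 2. Among the Rec-1 libraries the control had 0.240 FPKM, sgRNA 1 had 0.281 and sgRNA 2 had 0.284. Both controls lay below all 4 sgRNA libraries, at levels under the minimum for testing. In a limma fit with no minimum the Jeko difference was 0.21 (SE 0.04, adjusted p 0.308). Whether counting used strand is not given in the sources used here. Reads from the stretch where KCNQ1OT1 overlaps KCNQ1 thus may not be told apart. KCNQ1, a potassium channel gene, was higher in the libraries labelled Rec-1 sgRNA than in Jeko sgRNA by 1.76 (SE 0.24, limma adjusted p 0.0151), while the KCNQ1OT1 levels ran the other way, at a mean of 0.282 against 0.359 FPKM.

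OIP5-AS1 (chromosome 15, 41576156 to 41614590, plus strand) was 45.4 FPKM in the Jeko control, 60.2 in sgRNA 1 and 49.3 in sgRNA 2. The Rec-1 levels were 37 FPKM for the control, 55.1 for sgRNA 1 and 36.1 for sgRNA 2. Guide 1 libraries were the highest of each line, and the lines overlapped. The limma differences were 0.26 (SE 0.35, adjusted p 0.791) in Jeko, 0.26 (SE 0.35, adjusted p 0.620) in Rec-1 and −0.28 (SE 0.28, adjusted p 0.495) between the sgRNA libraries of the lines. Its antisense neighbour OIP5, a centromere protein gene, was between 9.72 and 22.2 FPKM and highest in the Jeko control.

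MIR17HG (chromosome 13, 91999940 to 92049846, plus strand), the host of the first 6 microRNAs printed above, was 4.16 FPKM in the Jeko control, 1.33 in sgRNA 1 and 0.484 in sgRNA 2. For Rec-1 the control gave 4.22 FPKM, sgRNA 1 gave 2.83 and sgRNA 2 gave 3.72. The 2 controls were nearly equal and highest, and the 2 Jeko sgRNA libraries stood below the other 4. The Jeko sgRNA libraries held 32.1% and 11.6% of the control level and those labelled Rec-1 sgRNA 67.2% and 88.3%. MIR17HG was 1 of 8 tested genes that differed at least 2-fold (on the log2 scale used) the same way with both Jeko guides, where 3.04% of all tested genes did and 1.15% were lower with both. In Rec-1 0 of the 8 did, against 23.3%. NEAT1, at 48.4% and 43.3% of the Jeko control FPKM, fell just short on this scale, at −0.99 with sgRNA 1 and −1.13 with sgRNA 2. The limma difference of MIR17HG was −1.47 (SE 0.35, adjusted p 0.393) in Jeko and −0.29 (SE 0.35, adjusted p 0.578) in Rec-1. With a pseudocount of 0.1 the Jeko difference was −2.22. Between the lines MIR17HG averaged 0.909 ± 0.602 FPKM (SD, n = 2) in Jeko sgRNA and 3.28 ± 0.629 (SD, n = 2) in Rec-1 sgRNA. The limma difference was 1.19 (SE 0.29, adjusted p 0.0508), so it did not pass. It passed with both scaling alternatives (limma adjusted p 0.0446 and 0.0468), without small RNA genes (0.0176), with length adjustment (0.0214) and with either or both controls left out (0.0468 to 0.05). It did not pass with a pseudocount of 0.1 (difference 1.87, limma adjusted p 0.0723), with no minimum (0.0965), with eBayes without trend (0.0539), with a replicate block (0.0718) or with any 1 sgRNA library left out (0.0803 to 0.197).

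MIR155HG (chromosome 21, 26934122 to 26947480, plus strand), the host of miR-155, was 0.426 FPKM in the Jeko control, 0.140 in sgRNA 1 and 0.221 in sgRNA 2. Among the Rec-1 libraries the control had 0.968 FPKM, sgRNA 1 had 0.574 and sgRNA 2 had 0.975. The 3 Jeko libraries were below the 3 labelled Rec-1, with no overlap, and all 6 were below 1 FPKM. In the limma fit with no minimum the difference between the sgRNA libraries of the lines was 0.58 (SE 0.14, adjusted p 0.0864). The Jeko difference was −0.27 (SE 0.17, adjusted p 0.654) and the Rec-1 difference −0.16 (SE 0.17, adjusted p 0.582).

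DLEU1 (chromosome 13, 50656305 to 51480992, plus strand) and DLEU2 (50530806 to 50699856, minus strand) overlap over 43.6 kb in this annotation, so without strand part of their reads may be shared. DLEU1 was 4.72 FPKM in the Jeko control, 6.20 in sgRNA 1 and 3.90 in sgRNA 2. The Rec-1 levels were 4.47 FPKM for the control, 11.2 for sgRNA 1 and 8.07 for sgRNA 2. The libraries labelled Rec-1 sgRNA were above the other 4. The limma difference of DLEU1 was 0.94 (SE 0.35, adjusted p 0.134) in Rec-1, 0.82 (SE 0.28, adjusted p 0.107) between the lines and 0.06 (SE 0.35, adjusted p 0.973) in Jeko.

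DLEU2, the host of miR-15a and miR-16, was 2.92 FPKM in the Jeko control, 3.37 in sgRNA 1 and 1.98 in sgRNA 2. For Rec-1 the control gave 3.53 FPKM, sgRNA 1 gave 2.45 and sgRNA 2 gave 2.37. Its libraries overlapped between the lines. The limma differences were −0.12 (SE 0.29, adjusted p 0.893) in Jeko, −0.41 (SE 0.29, adjusted p 0.356) in Rec-1 and −0.08 (SE 0.24, adjusted p 0.816) between the lines. The ratio of DLEU1 to DLEU2 ranged from 1.26 in the Rec-1 control to 1.97 among it and the 3 Jeko libraries. With Rec-1 sgRNA 1 it was 4.56 and with Rec-1 sgRNA 2 it was 3.40.

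PVT1, a long noncoding gene on chromosome 8, was 6.93 FPKM in the Jeko control, 9.22 in sgRNA 1 and 5.02 in sgRNA 2. Among the Rec-1 libraries the control had 5.52 FPKM, sgRNA 1 had 7.78 and sgRNA 2 had 5.42. As with OIP5-AS1, guide 1 libraries were the highest of each line. The limma differences were −0.02 (SE 0.42) in Jeko, 0.20 (SE 0.42) in Rec-1 and −0.06 (SE 0.34) between the lines, each smaller than its standard error.

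**Figure D3:**
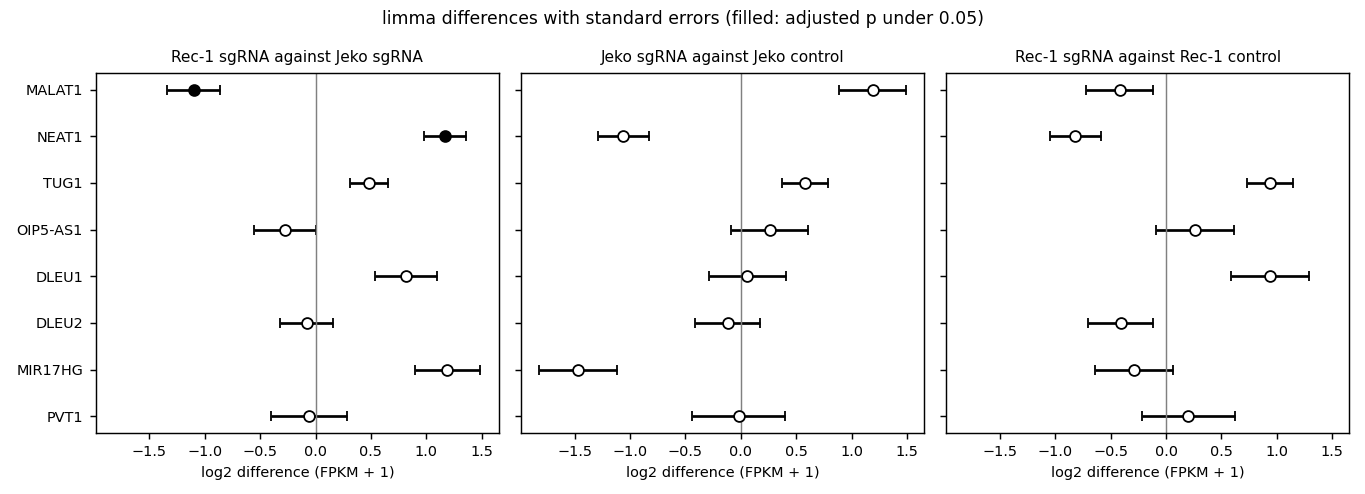
limma difference in log2(FPKM + 1) (horizontal axes, bars are standard errors) of the 8 tested genes in 3 comparisons, with filled points for an adjusted p under 0.05. The filled points are MALAT1 at −1.10 and NEAT1 at 1.17 between the sgRNA libraries of the lines.

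Of the 14 microRNA genes that lie inside MIR17HG, MIR155HG, DLEU2 and PVT1, 13 were listed at 0 in all 6 libraries. The other, MIR1204 in PVT1, was listed at 296 FPKM in the library labelled Rec-1 sgRNA 2 and at 0 elsewhere, and so short a gene takes a high FPKM from few fragments. The RNA library kit used is not made to capture mature microRNAs, so the host levels say nothing of the levels of the mature forms. Of 10 microRNA processing genes tested, 3 passed between the lines, a share near the 25.9% of all tested genes. AGO4, an Argonaute protein, was higher in the libraries labelled Rec-1 sgRNA by 0.91 (SE 0.15, limma adjusted p 0.0246). DROSHA, which cuts the hairpin from the host RNA, was lower there by −1.11 (SE 0.21, limma adjusted p 0.0315), and XPO5, which exports the hairpin, by −1.05 (SE 0.23, limma adjusted p 0.0405). Within the lines 0 of 10 passed in Jeko and AGO4 alone in Rec-1 (where 19.2% of all tested genes passed), at 1.49 (SE 0.19, limma adjusted p 0.0164). The medians of the 10 were 0.52 in Jeko and 0.45 in Rec-1.

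Among 15 tested genes described as targets of these microRNAs, 10 passed between the sgRNA libraries of the lines, 5 higher and 5 lower in those labelled Rec-1, against 25.9% of all tested genes. The list median was 0.35, against −0.03 over all tested genes. BCL2L11, the proapoptotic BIM and a described target of the MIR17HG microRNAs, was higher by 3.51 (SE 0.13, limma adjusted p 0.00139). CCND1 and TNFAIP3 were lower by −8.51 (SE 0.35, limma adjusted p 0.00142) and −2.85 (SE 0.22, adjusted p 0.00400). TNFAIP3 was 15.9 to 24.1 FPKM in the Jeko libraries and the Rec-1 control, and 1.69 and 1.77 in those labelled Rec-1 sgRNA. These genes thus split the libraries where the labels are in doubt, and a part of the microRNAs was not tested. In Jeko 0 of 15 passed, where 0.439% of all tested genes did. In Rec-1 8 of 15 passed, 5 higher and 3 lower, against 19.2% of all.

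Of 16 tested genes beside the 10, 5 passed between the lines, a share near the 25.9% of all tested genes. DLEU7, in the chromosome 13 region of DLEU1 and DLEU2, ranged from 1.39 to 1.95 FPKM among the Rec-1 control and all 3 Jeko libraries and was listed at 0 in both libraries labelled Rec-1 sgRNA (difference −1.50, SE 0.13, limma adjusted p 0.00513). SPRYD7, of the same region, was higher there by 0.90 (SE 0.17, limma adjusted p 0.0326). LTBP3, near NEAT1 and MALAT1, was higher by 1.80 (SE 0.22, limma adjusted p 0.0122). Within Jeko 0 of 16 passed, and within Rec-1 3 did, 1 higher and 2 lower, where 0.439% and 19.2% of all tested genes passed.

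Among 222 tested genes named as long intergenic, antisense or intronic transcripts, 74 passed between the lines, 50 higher and 24 lower in those labelled Rec-1, with a median of 0.35. Over all tested genes 25.9% passed, 12.8% higher and 13% lower. Their medians were −0.15 in Jeko, with 0 of 222 passed (0.439% of all tested genes), and 0.21 in Rec-1, with 41 passed (19.2% of all). The medians of the 8 genes were 0.21 between the lines, 0.02 in Jeko and −0.05 in Rec-1. In these 3 comparisons the median over all tested genes was −0.03, 0.00 and 0.00.

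**Figure D4:**
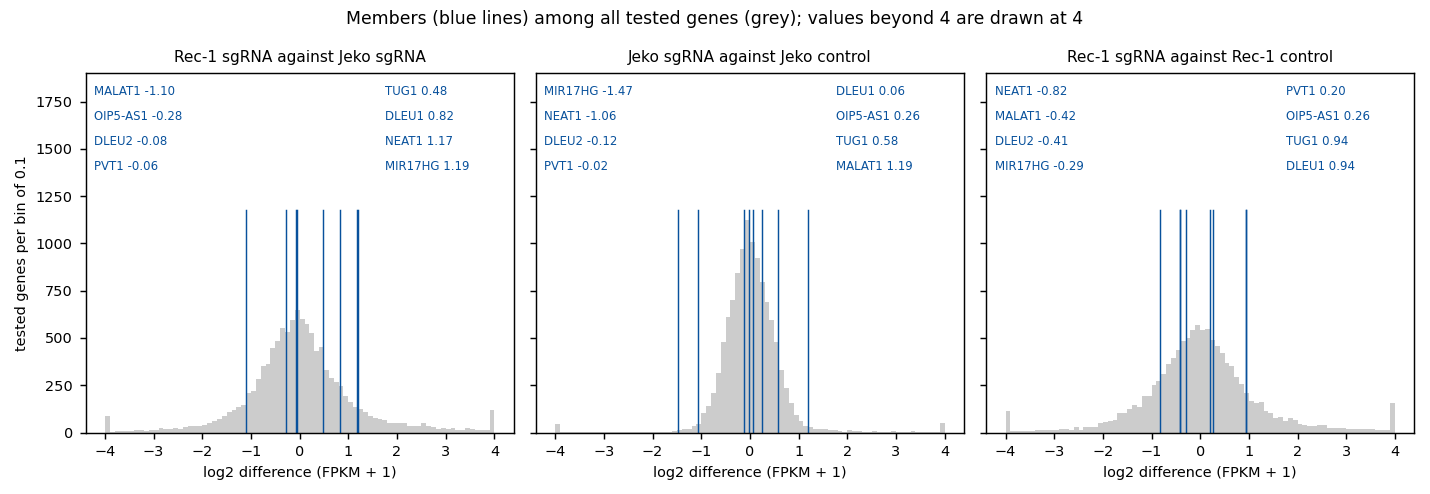
Number of tested genes per bin of 0.1 (vertical axis) by limma difference in log2(FPKM + 1) (horizontal axis) in 3 comparisons, with the 8 tested genes as blue lines and their values printed. MIR17HG at −1.47, NEAT1 at −1.06 and MALAT1 at 1.19 lie in the tails of the Jeko comparison, and the members lie inside the wider spread of the comparisons that use the libraries labelled Rec-1 sgRNA.

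Over both lines together, 0 of the 8 genes passed for sgRNA against control, where 0.246% of all tested genes did, and 2 had an unadjusted p under 0.05, NEAT1 and TUG1, against 21.1% of all. For the interaction of line and sgRNA 0 of the 8 passed, where 6.94% of all tested genes did, and MALAT1 alone had an unadjusted p under 0.05 (limma, 0.0182), against 21.9% of all. NEAT1 and MIR17HG were lower than the own-line control in all 4 sgRNA libraries, where 21.1% of all tested genes were. TUG1 was higher in all 4, so 3 of the 8 went the same way in all 4, against 42.1% of all tested genes, and the other 5 were mixed in direction.

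For each of the 5 tested genes that ranged over at least 1 log2 unit, the nearest tested gene was taken as that with the smallest root mean square distance between centred profiles over the 6 libraries. These were PDE4B for MALAT1 (distance 0.140), LOC644656 for NEAT1 (0.192), TM9SF4 for TUG1 (0.042), LRP5L for DLEU1 (0.077) and AK1 for MIR17HG (0.153). The median distance of all tested genes from these 5 was between 0.562 (TUG1) and 0.840 (NEAT1). TM9SF4 had 13.1 and 13.9 FPKM in the Jeko and Rec-1 controls, 18.4 and 21.9 in Jeko sgRNA and 26.2 and 27.8 in Rec-1 sgRNA. Its likeness to TUG1 in shape was set by the choice, and its levels were near those of TUG1 too.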

How the data were processed

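Per the file headers, the deposited table gives FPKM per gene in 6 columns, 1 a library. TopHat and the build hg19 are named in the submitters' processing notes. The program that computed FPKM, the annotation and the use of strand are not given in the sources used here. Libraries were made with an Illumina TruSeq RNA kit, per the labels' protocols.

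The 11400 genes whose FPKM averaged 1 or more entered the tests, made on log2(FPKM + 1) with limma 3.58.1 in R 4.3.3 (lmFit, eBayes with a mean-variance trend) and Benjamini-Hochberg adjustment over all of them. Group means of the 4 groups gave the contrasts within and between lines and the interaction, and an additive model with line as covariate gave sgRNA against control. The script was tested on simulated data. Low values gave depths of 0.872 (Jeko sgRNA 1), 1.10 (Jeko sgRNA 2), 1.10 (Rec-1 control) and 0.687 (Rec-1 sgRNA 2) relative to the Jeko control, from the commonest ratio among genes above 0 and under 0.05 FPKM in both libraries. No ratio was common in Rec-1 sgRNA 1 (7 of 562 genes, 1.25%). Absolute depth is unknown, so no counting intervals are given.

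The 10 genes and the lists were chosen with earlier results of these data known. All 10 were always named, with list genes past the threshold (at most 4 per list, by adjusted p) and the nearest gene by profile. Coordinates are from GENCODE v44 mapped to GRCh37. Alternatives were another pseudocount, other minimums, 2 scalings, removal of small RNA genes, adjustment for transcript length (known for 95.7% of tested genes), eBayes without trend, a replicate block for the guide number and leaving out libraries. Python 3.11.15, numpy 2.4.6, pandas 2.3.3 and matplotlib 3.10.9 were used for the rest. Values of some list genes are not reported here.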

Additional observations from a re-analysis of the deposited data

Results flagged for a closer look

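MALAT1 went in opposite directions in the lines. It was above the control in both Jeko sgRNA libraries and below it in both libraries labelled Rec-1 sgRNA, where 20.7% of all tested genes were opposite in this way. The difference between the lines, Rec-1 minus Jeko, was −1.60 (SE 0.42, limma interaction, adjusted p 0.133), so it did not pass the test.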

How the results depend on the processing

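The count of 2 genes called between the sgRNA libraries of the lines was 1 (NEAT1) with a minimum mean of 5 FPKM, with no minimum and with a replicate block for the guide number, and 0 to 0 when an sgRNA replicate was left out. It was 3, with MIR17HG added, under median-of-ratios scaling, scaling without MIR6723 and MIR4461 and removal of small RNA genes, and, in alternatives chosen after seeing the data, with either or both controls left out. With length adjustment it stayed at 2, but as NEAT1 and MIR17HG, without MALAT1. The count of 0 in Rec-1 sgRNA against control was 1 (TUG1) with median-of-ratios scaling, with scaling without MIR6723 and MIR4461, without small RNA genes and with eBayes without trend. The replicate block changed no other call. The guide number is the only link between the lines, and differences between guides 2 and 1 correlated at 0.0998 across genes between the lines.

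Some small differences turned sign, with ranges over leaving out each replicate. Between the lines these were −0.58 to 0.02 for OIP5-AS1 (highest without Rec-1 sgRNA 2), −0.36 to 0.19 for DLEU2 and −0.44 to 0.32 for PVT1 (highest without Jeko sgRNA 1). In Jeko they were −0.22 to 0.33 for DLEU1 and −0.40 to 0.16 for DLEU2 and −0.40 to 0.37 for PVT1. In Rec-1 they were −0.04 to 0.56 for OIP5-AS1 and −0.02 to 0.43 for PVT1. Over both lines MALAT1 was −0.42 without the Jeko control and 1.19 without the Rec-1 control. Length adjustment in Jeko gave −0.11 for OIP5-AS1, −0.12 for DLEU1 and 0.16 for PVT1, and scaling without MIR6723 and MIR4461 gave 0.06 for PVT1. The cause was not tested. KCNQ1OT1 and MIR155HG could be fitted only with no minimum, and absolute depth, which limits low FPKM, is unknown.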
